A study of Mus musculus with 6 samples.

Results

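The keratin family was read in muscle of the hind limb, in wild type mice and in mice deficient in laminin alpha 2 chain. Its members were chosen by gene symbol: Krt followed by a number, Krtap followed by a number, or Tchh, on a probe set that carries exactly 1 symbol. The rule found 87 genes among the 18193 genes with such a probe set, on 105 of the 45101 probe sets of the array. Each gene was read by the probe set with its highest mean signal over the 6 libraries. The 87 genes were divided by where the protein is known to be made: 12 hair shaft keratins, 8 genes of the inner root sheath (7 keratins and trichohyalin), 38 keratin-associated proteins, 6 keratins of the outer root sheath and companion layer, 7 epidermal keratins, 5 simple epithelial keratins and 11 other keratins.

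The study set 3 wild type mice beside 3 deficient mice, all 4 weeks old, with the muscles of the hind limbs of each mouse, by the labels, taken as 1 sample and hybridised to 1 Affymetrix array. The labels name neither the strain, the sex nor the Lama2 allele of the mice, and give no treatment. Libraries are called wild type 1 to 3 and deficient 1 to 3 by the replicate numbers of the labels, and values for 3 libraries stand in that order. Signals are the deposited linear intensities, whose scale has no unit. Signals of different genes come from different probes and are not compared with each other here.

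Keratins are the intermediate filament proteins of epithelial cells, and a type I keratin always pairs with a type II keratin. Hair keratins, together with the keratin-associated proteins that crosslink them, build the hard shaft of the hair, while a separate set of keratins and trichohyalin stiffens the inner root sheath that guides the growing shaft. These genes are read in the growing phase of the hair cycle, in the lower follicle. Keratins 5 and 14 mark the basal layer of the epidermis, keratins 1 and 10 the layers above it, and keratins 8 and 18 single-layered epithelia. Mature muscle fibres use desmin as their main intermediate filament, and their keratins are known only at low abundance.

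The 87 genes lie mostly in clusters. By RefSeq on GRCm38.p6, 34 are on chromosome 11, which holds the type I keratins apart from Krt18 and 10 of the keratin-associated genes, 24 on chromosome 15, which holds the type II keratins and Krt18, and 20 on chromosome 16. Of the 18193 genes, 50 (0.275%) had a signal in both wild type 1 and wild type 2 at least 4 times that of every other library, and 33 of these 50 (66%) were members. Of these 33, 15 lie on chromosome 11, 15 on chromosome 16, 2 on chromosome 15 and 1, Tchh, on chromosome 3. Stretches before the start of 9 members are shown. Of these, Krt31 and Krt73 fell short of the margin. Their wild type 2 was 2.19 and 2.35 times the highest of wild type 3 and the deficient libraries. Krt25, Krt71 and Krt73 are of the inner root sheath, Krt31 and Krt34 of the hair shaft, Krtap8-1 and Krtap22-2 are keratin-associated genes, and Krt5 and Krt18 are given for contrast. Each stretch is the gene strand from RefSeq (GRCm38.p6), read 5′ to 3′ and ending 1 base before the annotated start. Capitals mark TATAAA between 40 and 21 bases before the start and CTTTGAA on the gene strand. Every inner root sheath, hair shaft and keratin-associated stretch shown holds TATAAA there. Krt27 and Krt33b, which reached the 4-fold margin, hold none there and are not shown. Both hold TATAAA just outside this window, Krt27 nearer the start and Krt33b farther from it. The part of these sequences in the signals was not tested.
Krt25, chr11:99322952-99323051, minus strand: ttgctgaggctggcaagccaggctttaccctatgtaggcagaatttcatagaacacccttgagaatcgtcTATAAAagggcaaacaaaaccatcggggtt
Krt71, chr15:101743098-101743197, minus strand: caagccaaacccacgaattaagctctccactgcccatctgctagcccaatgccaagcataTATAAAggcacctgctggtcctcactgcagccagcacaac
Krt73, chr15:101802361-101802460, minus strand: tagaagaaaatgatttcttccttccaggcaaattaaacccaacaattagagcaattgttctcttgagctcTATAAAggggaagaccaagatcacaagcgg
Krt31, chr11:100050552-100050801, minus strand: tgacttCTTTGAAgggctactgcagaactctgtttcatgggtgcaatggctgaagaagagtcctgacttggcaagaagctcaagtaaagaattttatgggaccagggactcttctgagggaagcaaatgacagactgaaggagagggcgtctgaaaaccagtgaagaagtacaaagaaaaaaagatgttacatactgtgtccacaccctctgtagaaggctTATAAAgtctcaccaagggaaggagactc
Krt34, chr11:100041555-100041804, minus strand: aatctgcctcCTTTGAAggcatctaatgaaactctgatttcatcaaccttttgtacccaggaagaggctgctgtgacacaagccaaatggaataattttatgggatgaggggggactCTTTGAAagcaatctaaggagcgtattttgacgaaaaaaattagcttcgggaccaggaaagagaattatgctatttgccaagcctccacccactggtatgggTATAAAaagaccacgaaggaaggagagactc
Krtap8-1, chr16:89487953-89488052, minus strand: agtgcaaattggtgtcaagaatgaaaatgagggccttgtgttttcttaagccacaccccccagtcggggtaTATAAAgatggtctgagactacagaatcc
Krtap22-2, chr16:89010760-89010859, minus strand: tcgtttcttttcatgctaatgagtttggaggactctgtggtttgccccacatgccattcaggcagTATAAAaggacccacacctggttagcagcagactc
Krt5, chr15:101712906-101713005, minus strand: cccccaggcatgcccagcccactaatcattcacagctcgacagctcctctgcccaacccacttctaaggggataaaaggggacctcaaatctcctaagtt
Krt18, chr15:102028116-102028215, plus strand: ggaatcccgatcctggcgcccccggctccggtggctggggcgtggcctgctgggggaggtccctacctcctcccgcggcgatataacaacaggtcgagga

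RefSeq's promoter table held 69 of the 87 members. TATAAA, the core of the TATA box, stood on the gene strand wholly within 40 to 21 bases before the start in 29 of 51 promoters (56.9%) of hair shaft, inner root sheath and keratin-associated genes. The share over all 27025 promoters of the table was 2.09%. By class it was found in 3 of 7 hair shaft, 5 of 8 inner root sheath and 21 of 36 keratin-associated promoters, against 1 of 5 epidermal and 1 of 4 simple epithelial ones. CTTTGAA, a core sequence bound by LEF1 and TCF factors, was searched on both strands in the 250 bases before the start. It was found in 4 of 7 hair shaft promoters (57.1%), those of Krt31, Krt32, Krt33b and Krt34, in 1 of 8 inner root sheath promoters and in 6 of 36 keratin-associated promoters (16.7%), against 4.64% of all promoters. In Krt31, Krt32, Krt33b and Krt34 its first base lay 244, 247, 247 and 240 bases before the start, and Krt34 held a further copy at 133. GGGCGG, the core of the GC box, was found on either strand in 0 of the 51 promoters, where the share over all promoters was 32.9%. CCAAT was found in 18 of 51 (35.3%), near the 34.5% over all promoters. None of these motifs contains another, and neighbouring members share ancestry, so their promoters are not separate observations. A match describes these letters and nothing about binding.

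The 7 keratins of the inner root sheath and trichohyalin had high signals in wild type 1 and 2 and low signals in the other 4 libraries. In all 8 genes wild type 1 was the highest library and wild type 2 the second. The class median was 226, 87.2 and 14.3 in the wild type libraries and 2.5, 7.15 and 3.65 in the deficient ones. Wild type 3 lay above every deficient library in 3 of the 8, Tchh, Krt27 and Krt73, and within their range in 5.

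Trichohyalin, the granule protein that is crosslinked into the inner root sheath and the medulla, had a signal of 343, 179 and 22.3 in the wild type libraries and 1.9, 0.2 and 3.9 in the deficient ones. No wild type value overlapped a deficient one, and the wild type values themselves spanned more than 10-fold. Tchh was called lower in deficient muscle, with a mean of 181 ± 160.3 (SD, n = 3) in wild type and 2 ± 1.85 (SD, n = 3) in deficient muscle, a log2 fold change of -2.95 (SE 0.66) and an adjusted p of 0.0486 in limma. It passed the filter on low signal through its wild type values, and in the fit without that filter the adjusted p was 0.0782. Krt73, a type II keratin of the sheath cuticle, had a signal of 97.3, 52.6 and 22.4 in the wild type libraries and 1.7, 5.1 and 1.8 in the deficient ones. Its groups did not overlap either, and wild type 3 was a larger fraction of wild type 2 than for the other keratins of the class. Krt73 was called lower, with a mean of 57.4 ± 37.7 (SD, n = 3) in wild type and 2.87 ± 1.93 (SD, n = 3) in deficient muscle, a log2 fold change of -1.83 (SE 0.38) and an adjusted p of 0.0392. It too passed the filter through wild type, and without the filter the adjusted p was 0.0535. Throughout, a log2 fold change is the deficient mean less the wild type mean of log2(signal + 16). The added 16 makes the change of a low gene look smaller than it is.

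Krt25, a type I keratin found in all layers of the inner root sheath, had a signal of 653, 244.5 and 17.1 in the wild type libraries and 11.8, 20.2 and 3.4 in the deficient ones. Wild type 3 lay inside the deficient range, and the log2 fold change of -2.74 had an adjusted p of 0.128. Krt27, its close relative, had a signal of 311.5, 118 and 11.5 in the wild type libraries and 1.7, 1.4 and 1.5 in the deficient ones. The groups did not overlap, yet the spread within the wild type left the log2 fold change of -2.60 with an adjusted p of 0.0877. Krt71, the type II partner of these type I keratins, had a signal of 306, 125 and 16.6 in the wild type libraries and 8.8, 13.1 and 25.2 in the deficient ones, with deficient 3 above wild type 3. Its log2 fold change was -1.88 (adjusted p = 0.168). The other 3, Krt26, Krt28 and Krt72, showed the same order in the first 2 wild type libraries and did not pass the test.

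**Figure D1:**
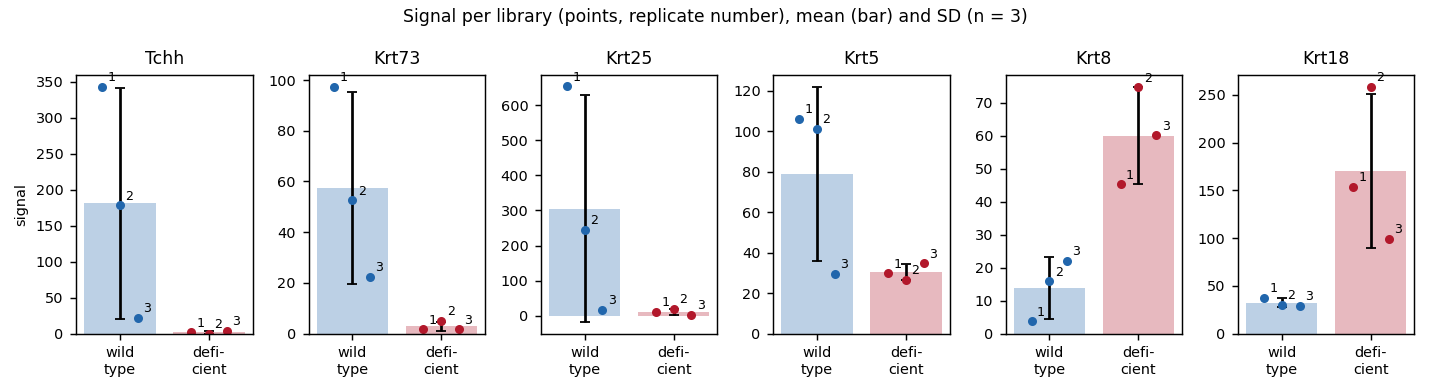
Signal of selected members in each library (points, numbered by replicate), with the mean as a bar and the SD as an error bar (n = 3 per group). Tchh, Krt73 and Krt25 are high in wild type 1 and 2 and low elsewhere, Krt5 is nearly level in wild type 1 and 2, and Krt8 and Krt18 are higher in every deficient library than in any wild type one.

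Across the 67 members that passed the filter on low signal, 4 were called at an adjusted p under 0.05, or 5.97%, where 2.69% of all 13104 genes tested were called. Tchh and Krt73 were the 2 called lower in deficient muscle (2.99%, beside 1.44% of all genes), and Krt8 and Krt18 the 2 called higher (2.99%, beside 1.25%). An unadjusted p under 0.05 in limma was reached by 39 of the 67 members, beside 2479 of all 13104 genes. These counts describe genes chosen with the signal of the first 2 wild type libraries already known. The filter kept genes with a mean signal of at least 15 over the 6 libraries and left out 20 members. Of the 67, 36 had both a deficient mean and a wild type 3 signal below it, so they passed through wild type 1 and 2. Just inside it were Krtap19-1 and Krt24, with means of 17.1 and 17.6, and just outside it Krt17 and Krtap5-5, with 15.0 and 13.7. In a fit of all 18193 genes without the filter, Krt18 was the 1 member called, where 0.605% of genes were called lower and 0.583% higher.

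Most of the hair shaft keratins followed the same order of libraries. Their summed signal was 1607, 610.5 and 207 in the wild type libraries and 83.9, 212 and 129.6 in the deficient ones. Wild type 1 and 2 were the highest libraries in 9 of 12, and 5 of the 12 reached the 4-fold margin in both. None of the 11 that passed the filter was called in limma, and 5 had an unadjusted p under 0.05.

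Krt33a, a type I keratin of the hair cortex, had a signal of 365, 111 and 1.5 in the wild type libraries and 0.4, 1.7 and 1.1 in the deficient ones. The contrast was thus between 2 wild type libraries and the other 4, with wild type 3 inside the deficient range. Its log2 fold change was -2.47 (adjusted p = 0.164). Krt34, a type I keratin of the same gene cluster, had 220.3, 96.6 and 2.1 in the wild type libraries and 2.1, 4.5 and 2.2 in the deficient ones, and a log2 fold change of -2.05 (adjusted p = 0.178). Krt33b had 114, 48 and 5 in the wild type libraries and 2.2, 3.2 and 4.9 in the deficient ones, with a log2 fold change of -1.53 (adjusted p = 0.175).

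Krt86, a type II hair keratin in which changes are known to cause the beaded hair of monilethrix, had 159, 59.3 and 15.5 in the wild type libraries and 1.6, 1.7 and 1.5 in the deficient ones. Here wild type 3 stood above every deficient library as well, and the groups did not overlap. The log2 fold change was -2.08 (adjusted p = 0.0681). Krt31, a type I cortex keratin, had 223, 67.6 and 30.8 in the wild type libraries and 8.5, 22.1 and 4.1 in the deficient ones, again without overlap, and a log2 fold change of -1.88 (adjusted p = 0.0913). The groups did not overlap, with deficient lower, in 4 of 12 shaft keratins (33.3%), beside 10.5% of all genes. With deficient higher it was 0, beside 10.1% of all genes. Krt84, a type II hair keratin also known from the tongue, had 6, 20.1 and 22.3 in the wild type libraries and 16, 26 and 19.8 in the deficient ones, and was the 1 shaft keratin with a positive log2 fold change, 0.22. Wild type 1 and 2 were not the 2 highest libraries in Krt32 and Krt36 either, with 45.6, 26.5 and 40.3 in the wild type libraries and 12.9, 23.3 and 25.4 in the deficient ones for Krt32 and 40.1, 8.2 and 31.4 in the wild type libraries and 9.6, 22.3 and 1.8 in the deficient ones for Krt36.

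The keratin-associated genes were the largest class. Their summed signal was 7702, 3122 and 363 in the wild type libraries and 218, 414 and 343 in the deficient ones. Both wild type 1 and wild type 2 lay above every other library in 31 of 38 genes, and in 22 they did so by at least 4-fold. None of the 33 that passed the filter was called in limma, and 23 had an unadjusted p under 0.05, beside 2479 of all 13104 genes. Only 5 had a deficient mean that reached the filter, and 6 a wild type 3 signal that did. Most thus passed through wild type 1 and 2, whose high signals also enter these p. The groups did not overlap, with deficient lower, in 12 of the 38 (31.6%), beside 10.5% of all genes.

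Krtap8-1, a glycine- and tyrosine-rich protein of the hair cortex, had a signal of 1399.7, 385.5 and 3.5 in the wild type libraries and 8.7, 13.6 and 18.9 in the deficient ones. Wild type 3 was the lowest library of all 6, and the log2 fold change of -2.92 had an adjusted p of 0.227. Krtap22-2 had 706, 324 and 12.6 in the wild type libraries and 7.1, 3 and 1.3 in the deficient ones, without overlap, and the most negative log2 fold change of all members, -3.28 (adjusted p = 0.0974). Krtap6-5, of a further glycine- and tyrosine-rich family, had 554, 235.5 and 10.2 in the wild type libraries and 0.3, 4.7 and 14.8 in the deficient ones, with wild type 3 inside the deficient range, and a log2 fold change of -2.83 (adjusted p = 0.128).

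Krtap15 had 592, 161 and 3.3 in the wild type libraries and 0.6, 18.2 and 3 in the deficient ones, so deficient 2 exceeded wild type 3. Its log2 fold change was -2.53 (adjusted p = 0.202). Krtap4-6, of the cysteine-rich Krtap4 family, had 385, 146 and 9 in the wild type libraries and 5.7, 5 and 7.8 in the deficient ones, without overlap, and a log2 fold change of -2.41 (adjusted p = 0.139).

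The families differed in how many members reached the 4-fold margin. It was reached by 5 of 5 Krtap4 genes, 3 of 3 Krtap6 genes and 4 of 6 Krtap19 genes, and by 0 of 5 Krtap5 genes. In the Krtap5 family, of ultra-high sulphur proteins, signals outside wild type 1 and 2 reached 58.5, and those in wild type 1 reached 57.2 at most. Krtap6-3 went against the usual order of the first 2 wild type libraries, with 39.9, 81.9 and 5.3 in the wild type libraries and 4.8, 8.2 and 1.6 in the deficient ones. Krtap10-4 and Krtap12-1 were highest in deficient 2, at 54.2 and 45.3.

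**Figure D2:**
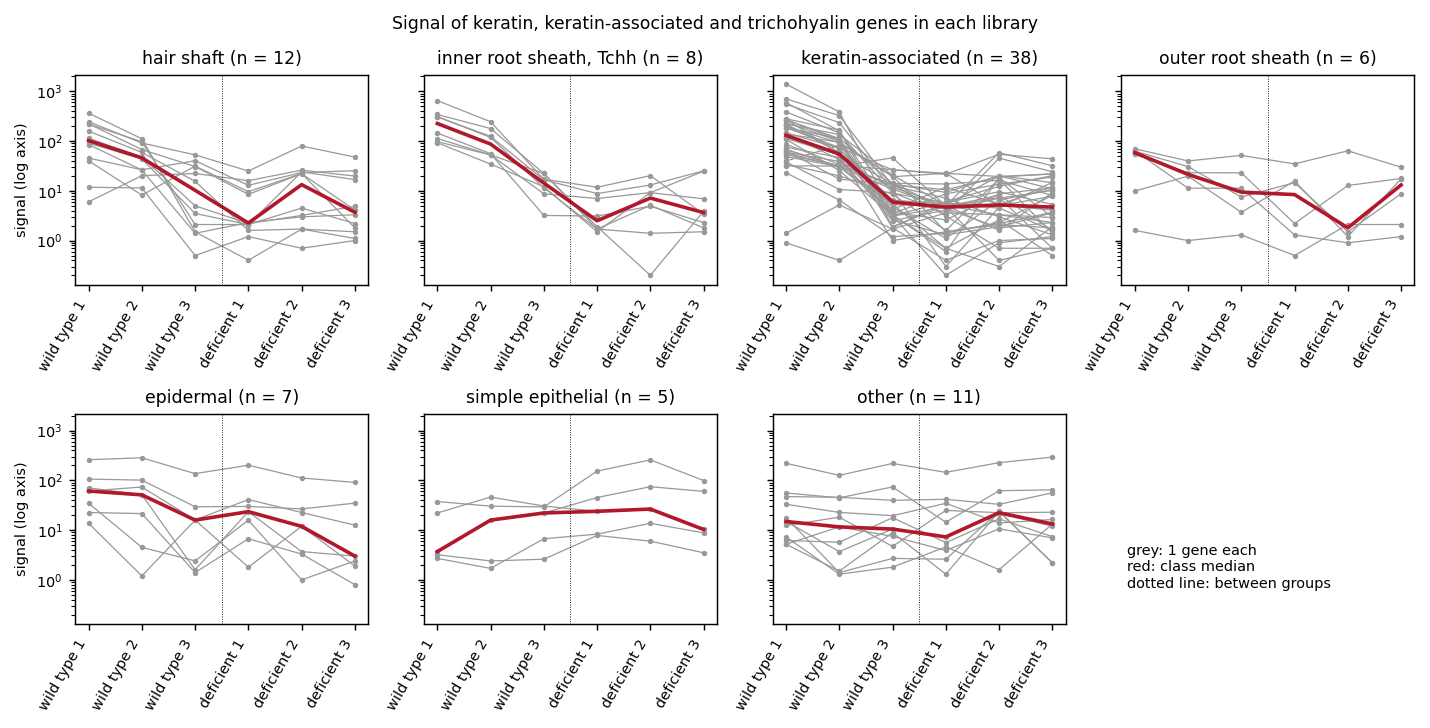
Signal of each member (log axis) in the 6 libraries, 1 panel per class, with the number of genes in each panel. Wild type 1 and 2 are the highest libraries in 8 of 8 inner root sheath, 9 of 12 hair shaft and 31 of 38 keratin-associated genes. Of the simple epithelial keratins, Krt8 and Krt18 are highest in the deficient libraries and Krt19 in wild type 2.

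Keratins of the outer root sheath and companion layer had no single order of libraries. Of 6 genes, 3 passed the filter, none was called in limma and 1 had an unadjusted p under 0.05. Wild type 1 and 2 were the 2 highest libraries in 2 of the 6, and none reached the 4-fold margin. Krt75, the type II keratin of the companion layer, had a signal of 62.9, 30.7 and 7.5 in the wild type libraries and 14.6, 1.5 and 8.7 in the deficient ones, with wild type 3 near the deficient libraries, and a log2 fold change of -0.90 (adjusted p = 0.302). Krt6a, a keratin induced in injured epidermis and present in the companion layer, had 54.1, 23.1 and 23 in the wild type libraries and 2.2, 12.8 and 17.7 in the deficient ones, without overlap. Its log2 fold change was -0.87 (adjusted p = 0.213), and -0.58 on the same probe set without wild type 1. Its other 2 probe sets gave -0.07 and -0.51. Krt79, of the hair canal, had 70, 39.9 and 51.6 in the wild type libraries and 34.8, 63.7 and 29.9 in the deficient ones, so the groups overlapped, with a log2 fold change of -0.27 (adjusted p = 0.644). Krt17, an outer root sheath keratin just outside the filter, had 63.8, 11.3 and 11.3 in the wild type libraries and 1.3, 0.9 and 1.2 in the deficient ones, with wild type 1 far above the rest.

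The epidermal keratins differed from the hair shaft and inner root sheath genes in margin and in the ratio of wild type 2 to wild type 1. Wild type 1 and 2 were still the 2 highest libraries in 5 of 7, beside 9 of 12 hair shaft keratins. Their summed signal was 569, 538 and 203.5 in the wild type libraries and 321, 181 and 147 in the deficient ones, so wild type 1 and 2 were nearly level and deficient 1 lay above wild type 3. Of 7 genes, 4 passed the filter, none was called in limma and 1 had an unadjusted p under 0.05. The groups overlapped in all 7, and none reached the 4-fold margin.

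Krt10, the type I keratin of differentiating layers, had a signal of 260.2, 285 and 137 in the wild type libraries and 202, 112 and 91.2 in the deficient ones. Deficient 1 exceeded wild type 3, and the log2 fold change was -0.70 (adjusted p = 0.288). Krt5, the type II keratin of the basal layer, had 106, 101.2 and 29.5 in the wild type libraries and 29.9, 26.7 and 34.9 in the deficient ones, with wild type 3 inside the deficient range and a log2 fold change of -0.90 (adjusted p = 0.211). Krt14, its type I partner, had 70.9, 51.2 and 1.6 in the wild type libraries and 23.5, 3.7 and 3 in the deficient ones, with wild type 3 lowest of all 6, and a log2 fold change of -0.93 (adjusted p = 0.41). Another probe set of Krt14 gave -1.14 and the last -0.11. Krt77, a type II keratin of skin, had 61.1, 73.6 and 16 in the wild type libraries and 41.2, 22.6 and 12.6 in the deficient ones, with a log2 fold change of -0.60 (adjusted p = 0.464). Krt1, the partner of Krt10, was outside the filter, with 34.8, 4.5 and 2.4 in the wild type libraries and 15.8, 1 and 2.4 in the deficient ones.

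The ratio of wild type 2 to wild type 1 set the epidermal keratins beside hair shaft, inner root sheath and keratin-associated genes within 1 pair of libraries. Among members with a signal of at least 20 in both, the median ratio was 0.374 in 9 hair shaft keratins (range 0.303 to 0.581) and 0.396 in 8 inner root sheath genes (0.373 to 0.541). It was 0.459 in 33 keratin-associated genes (0.206 to 2.05). In 5 epidermal keratins it was 0.954 (0.722 to 1.20), close to the 0.963 of 11227 genes over the whole array, of which 5% lay below 0.593 and 5% above 1.56. The 9 hair shaft and 8 inner root sheath ratios lay below the lowest of these 5. The minimum of 20 left out genes that were low in either library, among them Krt1, an epidermal keratin with 34.8 in wild type 1 and 4.5 in wild type 2, and Krt36, a shaft keratin with 40.1 and 8.2. The ratios come from 1 array against 1 array, so the difference between classes was not tested.

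**Figure D3:**
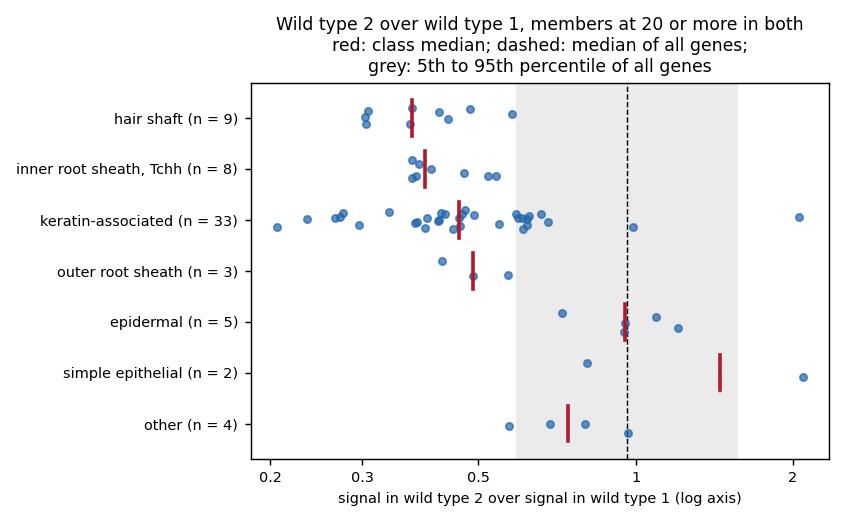
Signal in wild type 2 divided by signal in wild type 1 (log axis) for each member at 20 or more in both libraries, by class, with class medians in red. The dashed line is the median of all genes and the grey band their 5th to 95th percentiles. Hair shaft and inner root sheath genes lie between 0.303 and 0.581, and the 5 epidermal keratins shown between 0.722 and 1.20.

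The simple epithelial keratins ran the other way. Of 5 genes, 3 passed the filter and 2 of these, Krt8 and Krt18, rose in deficient muscle. Krt18, the type I keratin of single-layered epithelia, had a signal of 37.6, 30.3 and 29.3 in the wild type libraries and 154, 258.5 and 99.4 in the deficient ones. The lowest deficient library exceeded the highest wild type library by a wide margin, and the 3 wild type values lay close together. The mean was 32.4 ± 4.53 (SD, n = 3) in wild type and 171 ± 80.8 (SD, n = 3) in deficient muscle, the log2 fold change 1.86 (SE 0.30) and the adjusted p 0.0162.

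Krt8, the type II partner of Krt18, had a signal of 3.7, 15.9 and 22.1 in the wild type libraries and 45.2, 74.7 and 60.1 in the deficient ones. The groups did not overlap, and the mean was 13.9 ± 9.36 (SD, n = 3) in wild type and 60 ± 14.8 (SD, n = 3) in deficient muscle, with a log2 fold change of 1.38 (SE 0.30) and an adjusted p of 0.0453. It passed the filter through its deficient values. Its other 2 probe sets gave log2 fold changes of 1.31 and 1.31. Krt19, a type I keratin that can pair with Krt8, had 22.1, 46.2 and 30.5 in the wild type libraries and 23.9, 26.5 and 10.3 in the deficient ones, with overlap and a log2 fold change of -0.44 (adjusted p = 0.464). Krt20 and Krt7, of gut and glandular epithelia, were outside the filter, and their deficient signals of 13.7 and 7.8 at most lay above the wild type ones without overlap. The 5′ to 3′ signal ratio of the actin control probe sets, a measure of RNA integrity, was 1.15, 1.05 and 1.04 in wild type and 0.819, 0.51 and 0.573 in deficient muscle, and that of Gapdh ran from 0.886 to 1.19. The actin ratio was thus lower in every deficient library, and its part in the values of Krt8 and Krt18 was not tested.

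The 11 other keratins had no shared order. None of the 5 that passed the filter was called in limma, and 0 had an unadjusted p under 0.05. Krt24 had 12.4, 18.2 and 4.7 in the wild type libraries and 24.9, 22.4 and 22.9 in the deficient ones, higher in each deficient library than in any wild type one, with a log2 fold change of 0.53 (adjusted p = 0.342). Krt42, a type I keratin known from the nail, had 220.4, 126 and 219 in the wild type libraries and 145, 227 and 294 in the deficient ones, with a log2 fold change of 0.21 (adjusted p = 0.752), while its other probe set gave -0.46. Krt4, of the lining of the mouth and oesophagus, had 55.8, 44.6 and 73.9 in the wild type libraries and 14.4, 62 and 64.6 in the deficient ones, with deficient 1 apart from the rest and a log2 fold change of -0.34 (adjusted p = 0.663). Krt222 and Krt80 had log2 fold changes of -0.15 and -0.03 (adjusted p = 0.826 and 0.962).

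Over all 87 members, the groups did not overlap, with deficient lower, in 21 (24.1%), beside 10.5% of all 18193 genes. With deficient higher it was 5 (5.75%), beside 10.1%. The median log2 fold change of the members was -0.93, with 70 of 87 negative, beside a median of 0.01 over all genes. Wild type 1 and 2 were both above every other library in 55 members (63.2%, beside 9.09% of all genes), and wild type 1 was the highest library in 59 (17.3% of all genes had it highest). Wild type 3 lay above every deficient library in 27 members (31%), near the 28.1% of all genes, within their range in 42 and below them in 18.

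**Figure D4:**
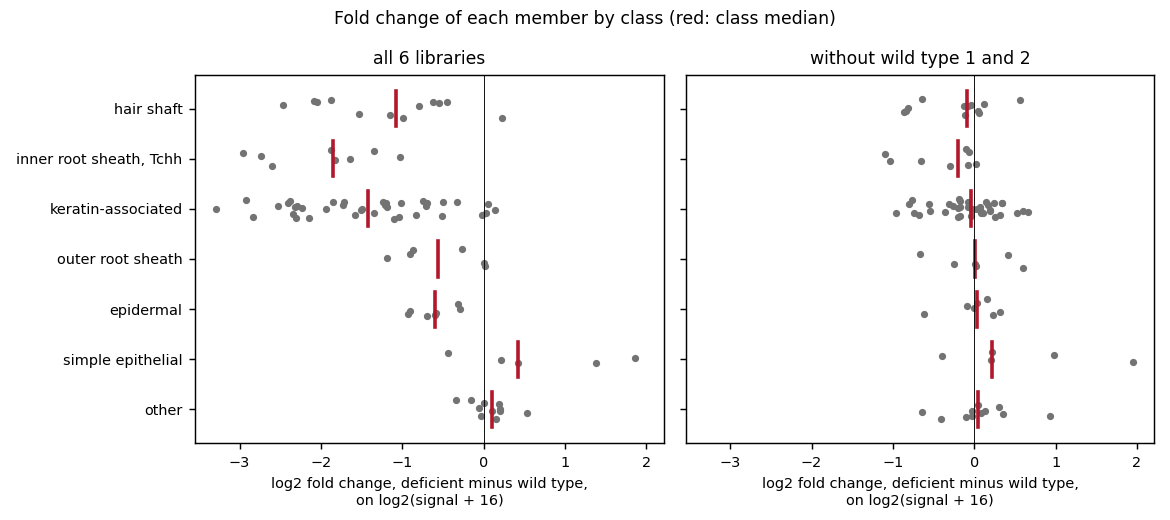
Log2 fold change of each member, deficient minus wild type on log2(signal + 16), by class, from all 6 libraries and from wild type 3 against the deficient libraries with the brightest probe set chosen anew, with class medians in red. With all libraries the class medians are -1.07 for hair shaft, -1.85 for inner root sheath and -1.42 for keratin-associated genes, and without wild type 1 and 2 they are -0.09, -0.20 and -0.03.

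The number of members called depended on which wild type libraries entered. Without wild type 3, 39 of 69 members were called in limma, 37 of them lower and 2 higher. Over all 13116 genes of that fit it was 222, 145 lower and 77 higher. Of the 67 members tested with all libraries, 36 passed the filter through wild type 1 and 2 only. These 2 libraries alone stood for the wild type here, so the 39 are no separate support. Without wild type 1, 0 of 53 were called in limma, with 14 at an unadjusted p under 0.05, and without wild type 2, 0 of 66, with 22. Over all genes 64 and 70 were called. Without deficient 1, deficient 2 and deficient 3 the counts were 0, 0 and 2, with 26, 30 and 36 at an unadjusted p under 0.05. In these fits 145, 75 and 665 of all genes were called. The adjusted p of Tchh was 0.157 without wild type 1, 0.172 without wild type 2, 0.114 without deficient 1, 0.17 without deficient 2 and 0.0522 without deficient 3, and 0.0012 without wild type 3. That of Krt18 was between 0.0516 and 0.0663 without each of wild type 1, wild type 2, deficient 1 and deficient 2. Krt73 was likewise lost without each of these 4, with adjusted p from 0.0958 to 0.146, and Krt8 without these and without deficient 3, from 0.0608 to 0.171.

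Choices of processing ended some of these calls. That of Tchh was lost with a pseudocount of 64 (adjusted p = 0.0866), no filter (0.0782), a filter at the 60th percentile (0.0543), median centring (0.0614), quantile normalization (0.0609), the mean of probe sets (0.0567) and no trend (0.0789). That of Krt73 was lost with a pseudocount of 64 (0.0647), no filter (0.0535) and no trend (0.0525). That of Krt8 was lost with a pseudocount of 4 (0.0637), no filter (0.0747), the mean of probe sets (0.0592) and no trend (0.0587). Krt73 and Krt8 did not pass the filter at the 60th percentile and were not tested there. Krt18 was called under each of these choices.

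With both wild type 1 and wild type 2 left out, wild type 3 alone stood for the wild type and was assumed to vary like the deficient libraries. None of the 24 members that then passed the filter was called in limma, with 2 at an unadjusted p under 0.05. The median log2 fold change over all 87 members was -0.03, with 47 of 87 negative (54%), and 50.9% of all genes were negative. The inner root sheath genes were still negative in 7 of 8, with a median of -0.20, and the simple epithelial keratins had a median of 0.22. Members that changed sign included Krt5 (0.028), Krt77 (0.32), Krtap8-1 (0.59), Krtap15 (0.20), Krt34 (0.063) and Krt75 (0.009). Krt6a stayed at -0.58 on the probe set read above, while another of its probe sets, the brightest once these libraries were left out, gave 0.60.

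**Figure D5:**
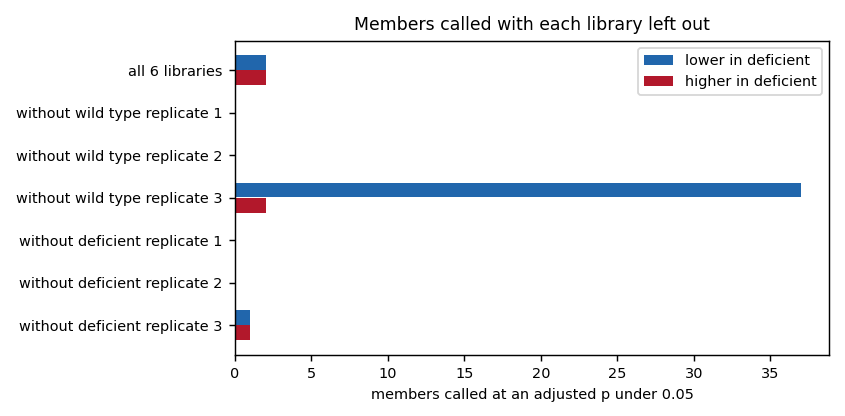
Number of members called lower (blue) and higher (red) in deficient muscle at an adjusted p under 0.05, with all 6 libraries and with each library left out in turn. The count is 4 with all libraries, 39 without wild type 3 and 0 without wild type 1, wild type 2, deficient 1 or deficient 2. Without wild type 3, 222 of all 13116 genes are called, and wild type 1 and 2 alone stand for the wild type.

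The first 2 wild type libraries shared another measured property. Eif2s3y, a gene of the Y chromosome, had a signal of 474, 467 and 10.7 in the wild type libraries and 415, 574 and 9.1 in the deficient ones. Xist, the RNA of the inactive X chromosome, had 1.4, 19.1 and 1163 in the wild type libraries and 396, 16.1 and 1839 in the deficient ones. Deficient 1 read both genes, and whether its RNA came from 1 mouse was not tested. A block of Eif2s3y above 100 put deficient 1 beside deficient 2, wild type 1 and wild type 2. With it 21 members were called, 19 lower and 2 higher, beside 1144 of all 13104 genes. Lama2 itself was 429, 416 and 326 in wild type and 82, 31.1 and 140.4 in deficient muscle. The part of these measures in the keratin values was not tested.

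Genes of skin that are no keratins were read from lists of known markers. The arrays cannot tell apart fewer cells of a type from less RNA per cell. Of 33 follicle genes outside the keratin family 30 were measured and 12 passed the filter. None of the 12 was called in limma. An unadjusted p under 0.05 was reached by 5, beside 2479 of all 13104 genes. Of these 5, 3 were lower and 2 higher in deficient muscle. The median log2 fold change over the 30 was -0.27. Wild type 1 and 2 were the 2 highest libraries in 11 of 30, beside 9.09% of all genes. S100a3, a calcium-binding protein of the hair cuticle, had a signal of 179.8, 68 and 16.6 in the wild type libraries and 10.6, 10 and 1.4 in the deficient ones, and Gprc5d, an orphan receptor of keratinising cells, had 100.1, 58.6 and 16.9 in the wild type libraries and 2.2, 6.8 and 13.4 in the deficient ones. Both followed the order of the hair keratins, with adjusted p of 0.11 and 0.0991. Hr, a nuclear corepressor needed for hair regrowth, was high in wild type 3 too, with 152, 94.4 and 137 in the wild type libraries and 49.1, 38.8 and 72.6 in the deficient ones (adjusted p = 0.0601). Ctsl, a lysosomal protease needed for normal hair cycling but made in most tissues, had 2161, 2026 and 2294 in the wild type libraries and 2773, 3115 and 3571 in the deficient ones (adjusted p = 0.0908). Sox9, a regulator of follicle stem cells and of cartilage, had 1.9, 23.2 and 1.5 in the wild type libraries and 24.6, 30.7 and 50.3 in the deficient ones, higher in every deficient library, with a log2 fold change of 1.12 (adjusted p = 0.145).

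Of 41 epidermal barrier genes 38 were measured and 21 passed. Ly6d, a surface protein of stratified epithelia and of early B cells, was the 1 called. It fell, with a signal of 93.3, 111 and 74.5 in the wild type libraries and 35.6, 25.1 and 35.3 in the deficient ones, a log2 fold change of -1.18 and an adjusted p of 0.0269, and in it wild type 3 stayed near wild type 1 and 2. The call was lost without each of wild type 1, wild type 2, deficient 1 and deficient 2, with adjusted p from 0.058 to 0.122, and in the fit without the filter (0.0581). In that fit Evpl, a cornified envelope protein outside the filter, was the list gene called, with 18.7, 28.2 and 21.5 in the wild type libraries and 2.3, 3.4 and 2 in the deficient ones (adjusted p = 0.0421). Sprr1a, a precursor of the cornified envelope, had 225, 101.2 and 25.6 in the wild type libraries and 19.8, 32.8 and 9.8 in the deficient ones (adjusted p = 0.157). Lgals7, a galectin of stratified epithelia, and Dsc3, a desmosomal cadherin of the basal layer, had adjusted p of 0.128 and 0.293. The summed signal of the list was 1896, 1381 and 803 in the wild type libraries and 928, 729.7 and 744 in the deficient ones. In 15 of 38, wild type 1 and 2 were the 2 highest libraries, beside 9.09% of all genes.

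Melanocyte and sebaceous genes were read in the same way. The 9 measured melanocyte genes summed to 107, 85.9 and 150.2 in the wild type libraries and 64.5, 202 and 87.9 in the deficient ones, with wild type 1 and 2 the 2 highest libraries in none of the 9. Mlana reached 2.8 at most. Only 2 of the 9 passed the filter, so these sums rest mostly on genes below it. Neither of the 2 that passed, Mc1r and Slc45a2, was called in limma, with 0 at an unadjusted p under 0.05. The 5 measured sebaceous genes summed to 212, 78 and 173 in the wild type libraries and 83.1, 103 and 56.2 in the deficient ones, and 0 of 3 were called in limma, with 1 at an unadjusted p under 0.05. These were Scd3 (log2 fold change -0.73), Elovl3 (-0.90) and Mc5r (0.15). Scd3 followed the order of the hair keratins. It had 34.3, 23.7 and 15.5 in the wild type libraries and 9.8, 13.9 and 1.8 in the deficient ones, without overlap. The groups overlapped in Elovl3 and Mc5r. The 10 skeletal muscle genes, Ckm, Acta1 and Myh4 among them, were bright in all 6 libraries, with sums from 77587 to 103826. None of the 10 was called in limma, and 3 had an unadjusted p under 0.05. The labelled tissue was thus present in every library. The part of skin cells in the keratin values was not tested.

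Genes outside the symbol rule were ranked by how like the follicle keratins their profile was. Pearson's r over 6 libraries was taken with the mean log2 profile of the 19 hair shaft and inner root sheath genes past the filter. The search ran over the 534 genes whose values spanned at least 2 on the log2 scale, and members, which make up the profile, were set aside. The 10 most alike were Gm11563 (r = 0.990), S100a14 (0.989), Gm10228 (0.986), Prr9 (0.982), S100a3 (0.980), Gm10229 (0.977), Sprr1a (0.977), Gm11559 (0.977), Gprc5d (0.975) and Gm11567 (0.973). Prr9, a proline-rich gene, had a signal of 541, 226 and 14 in the wild type libraries and 9.2, 2.6 and 8.4 in the deficient ones. With 6 points that rest mainly on 2 libraries, r is a description. A further 7 probe sets with several symbols were outside the rule. They include that shared by Gm10228 and Krtap6-1 and that shared by Gm11559, Gm11567 and Krtap9-1. Genes with Gm symbols were set outside by symbol alone, so the 10 are not all shown to lie outside the keratin-associated family.

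Probes could be shared between near-identical genes. Of the 87 members, 14 were read by a probe set that the array's naming marks as matching more than 1 transcript or family member: 4 with the suffix s, 6 with x and 4 with a. Of 14 members with several probe sets, all ran in 1 direction in 11 and in both directions in 3, Krt13, Krt4 and Krt42.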

How the data were processed

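Total RNA of hind limb muscle from 6 mice was hybridised to Affymetrix arrays, 1 array per mouse, and the mice were taken separately, per the labels. The deposited values are linear signal intensities made by the authors. The algorithm behind them is, in the sources used here, not given. On each array the mean without the extremes (2% at each end) was 100.001, so the arrays had been scaled to 1 level, and no further normalization was applied. All 87 members matched RefSeq genes.

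Values were taken as log2(signal + 16). The filter was the 40th percentile of mean signal over probe sets that are not controls. The brightest probe set with 1 symbol stood for a gene. The 2-group test was that of limma (version 3.58.1, under R 4.3.3 with package data.table at 1.17.8), two-sided, from lmFit followed by eBayes with trend, and Benjamini-Hochberg adjustment was over 13104 genes. The steps were run on simulated data with independent noise for each gene and library. Those data held no set of genes raised together in 2 wild type libraries, so they do not bear on the follicle genes. The number of arrays limits the precision.

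The members and gene lists were chosen with earlier results of these data known. Named members were those called, Tchh and the 5 largest absolute log2 fold changes of each class past the filter, and up to 4 genes with the smallest p of each list. Krt1, Krt17, Krt32, Krt36, Krt84, Krtap6-3, Krtap10-4, Krtap12-1, Krt7, Krt20, Mlana, Sox9 and Evpl were named after their values were seen. Alternatives were other pseudocounts, filters, normalizations and probe set rules, no trend, the replicate number as a block, and libraries left out. A block for Eif2s3y and a choice by mean log2 were added after seeing the data.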

Additional observations from a re-analysis of the deposited data

How the results depend on the processing

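Of the values for named genes under the alternatives, 803 kept direction and side of the threshold, 56 passed it newly, 40 lost it and 18 reversed. With all libraries, 4 members in 2 classes, 353 genes in all and 1 gene of the other lists were called. Pseudocounts of 4 and 64 gave 4 classes and 1 class, and 64 gave 2 members. No filter gave 1 member, 1 class and 216 genes, a filter at the 60th percentile 1 member and 1 class, no trend 1 member, 1 class and 159 genes, the mean of probe sets 2 members, and quantile normalization 2 genes of the other lists. The replicate block gave 17 members, 4 classes, 855 genes and 4 list genes. Same-numbered libraries correlated at 0.146, 0.0674 and 0.298, and unlike-numbered ones at -0.292 to 0.205. These values do not settle whether the numbers pair the mice, and the main fit took no pairing. The block for Eif2s3y, chosen after seeing the data, gave 21 members, 4 classes, 1144 genes and 6 list genes. Leaving out 1 library gave 0 to 39 members, 0 to 5 classes, 64 to 665 genes and 0 to 6 list genes. Without wild type 1 and 2 these were 0, 0, 21 and 0.

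In fits that kept at least 2 wild type libraries, adjusted p ran from 0.0012 to 0.172 for Tchh and 0.00991 to 0.146 for Krt73. It ran from 0.015 to 0.171 for Krt8 and 0.00241 to 0.0663 for Krt18. Among the alternatives that tested each gene, Tchh was called in 5 of 17 and Krt73 in 9 of 16. Krt8 was called in 7 of 17 and Krt18 in 13 of 18. Tchh and Krt73 did not pass the filter without wild type 1 and 2. There the log2 fold change was 0.98 for Krt8 and 1.95 for Krt18. Krt73 and Krt8 did not pass the higher filter. Without wild type 1 and 2, Krt222 (0.044), Krt42 (-0.032), Krt5 (0.028) and Krt77 (0.32) reversed in log2 fold change. So did Krt80 (0.080), Mc5r (-0.38) and Slc45a2 (-0.69). All of these passed the filter of that fit. Krtap8-1 (0.59), Krtap15 (0.20), Krt34 (0.063) and Krt75 (0.009) did not pass it, and reversed in the fit without a filter. With 1 library left out the values ran from -0.59 to 0.12 (without deficient 1) for Krt4, -0.036 (without wild type 2) to 0.46 for Krt42, -0.18 to 0.10 (without deficient 2) for Krt80, -0.32 to 0.071 (without deficient 1) for Mc1r and -0.32 (without wild type 1) to 0.47 for Slc45a2. Krt42 was also at -0.0099 without deficient 3, Krt80 at 0.0063 without wild type 1 and Slc45a2 at -0.18 without deficient 2. The mean of probe sets gave -0.13 for Krt42. For Krt6a, the brightest probe set changed with the libraries: values ran from -1.05 to 0.18 (without wild type 1) and were 0.60 without wild type 1 and 2, where the probe set read in all libraries gave -0.58 and -0.58. For the other reversals the cause was not tested.

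With 3 mice per group and 2 wild type libraries that stand apart, the wild type spread is wide for follicle genes. Signals near or below the filter have no reliable order.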
